A study of Danio rerio with 8 samples.

Results

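The data described here are the RNA levels of wild-type zebrafish embryos at 26 hours post fertilisation (hpf), read from the 4 wild-type pools among the 8 libraries of the study. These 4 pools were chosen by their labelled genotype. Each library was made from total RNA of pooled whole embryos that came from single and group crosses and were kept at 28 degrees. The labels give neither the number of embryos in a pool nor the clutch it came from, so the spread between pools may be partly technical. Ribosomal RNA was depleted before random-primed sequencing on an Illumina NovaSeq. The other 4 libraries come from maternal-zygotic osgep mutants and are not used here. With 1 genotype in use there is no contrast, and no p-value is given.

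At about a day after fertilisation the zebrafish embryo has segmented its trunk and is extending its tail. Its heart beats, primitive erythrocytes circulate, and the first neurons and muscle fibres work. It lives on its yolk, which the yolk syncytial layer (YSL), a multinucleate layer beneath the embryo, breaks down and exports as lipoproteins. Feeding organs and most visual and immune cell types mature later. In a whole-embryo library fewer cells of a type and less RNA per cell cannot be told apart.

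The 4 pools held between 21290942 and 24556327 expected counts. Levels are given as CPM, each count divided by its library's total and brought to the customary common total. One CPM therefore stood for 21.3 to 24.6 counts, and 3 counts, used as the limit that a count of 0 allows, corresponded to 0.122 to 0.141 CPM. Because no transcript length was at hand, a CPM value is a share of counts and favours long transcripts, so levels of different genes are not ranked as molecule numbers. Of 36351 rows in the table, 17809 reached 1 CPM in all 4 pools and are called present (49.0%), while 5485 had no count in any wild-type pool. The pools were not equally alike. Across the 13963 rows with a mean of at least 5 CPM, 1500 rows differed at least 2-fold between pools 1 and 4 and 1281 between pools 3 and 4, against 42 between pools 1 and 3. Pool 2 differed in 429 rows from pool 1, in 426 from pool 4 and in 265 from pool 3, so it was as near to pool 4 as to pool 1. Spearman's rho across these rows, which share library depth and are not independent, was 0.991 for pools 1 and 3, 0.906 for pools 1 and 4, 0.963 for pools 1 and 2 and 0.959 for pools 2 and 4. Results that rest on pool 4 are given below with and without it.

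Among the named functional classes, genes for making protein and for respiration took the largest shares of counts. The 25 rows with the highest mean held 13.6 ± 1.91% of counts (SD, n = 4), and the 1000 highest held 56.3 ± 2.80%. The mitochondrial gene mt-co1, which encodes the catalytic subunit of cytochrome c oxidase, was the highest row, with 21899, 14428, 19947 and 10678 CPM in pools 1 to 4. Its values thus ranged widely, with pool 1 highest and pool 4 lowest. The nuclear gene eef1a1l1, encoding the elongation factor that brings aminoacyl-tRNA to the ribosome, followed with 17099, 15375, 15541 and 15590 CPM, which was far more even. The elongation factor gene eef2b, whose product moves the ribosome along the message, averaged 7406 ± 331 CPM.

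Outside translation and mitochondria, the leading rows were keratins, chaperones, chromatin and RNA-binding genes. The surface keratin gene krt4 had 10358, 9223, 11068 and 12055 CPM in pools 1 to 4, and the related cyt1l averaged 2929 ± 563 CPM. The constitutive chaperone genes hspa8 and hsp90ab1 averaged 5399 ± 59.9 and 4796 ± 94.3 CPM and hardly differed between pools. The chromatin protein gene hmga1a averaged 4618 ± 421 CPM. The cold-inducible RNA-binding protein genes cirbpb and cirbpa averaged 3887 ± 283 and 3526 ± 291 CPM. The list was completed by ribosomal protein genes such as rplp0, rps2 and rpsa, further mitochondrial genes such as mt-co2, COX3 and mt-cyb, the actin gene actb2, the adenine nucleotide carrier gene slc25a5, tpt1, and 1 unnamed locus, si:ch211-222l21.1.

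**Figure D1:**
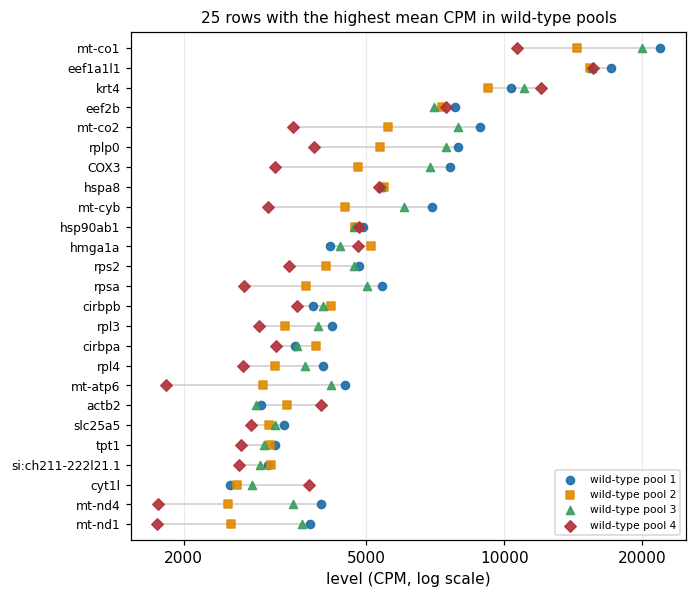
Levels (CPM, log axis) of the 25 rows with the highest mean over the 4 wild-type pools, 1 marker per pool, with a grey line over the range. The mitochondrial and ribosomal protein rows are spread with pool 1 at the high end and pool 4 at the low end, while eef1a1l1, hspa8 and hsp90ab1 have nearly overlapping markers.

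Grouped by class, cytoplasmic ribosomal protein genes held 16.3%, 11.99%, 15.0% and 9.03% of counts in pools 1 to 4, a mean of 13.1 ± 3.25%. Here and below, the pool in which a row was highest or lowest was read after scaling by trimmed mean of M-values (TMM). The closing screen for outlying pools instead used CPM without TMM scaling for genes and classes. Of the class's 85 rows at 5 CPM or more, 83 were highest in pool 1 and 83 lowest in pool 4. Genes of the mitochondrial genome, which encodes the core of the respiratory chain, held 6.70%, 4.34%, 6.08% and 3.02%. All 15 of their rows at 5 CPM or more were highest in pool 1. Over all 13963 such rows 28.7% were highest in pool 1 and 41.4% lowest in pool 4. The nuclear genes of oxidative phosphorylation, whose products join the mitochondrial ones in the same complexes, had a more even summed share. It was 0.760%, 0.864%, 0.808% and 0.815% of counts in pools 1 to 4. Of their 93 rows at 5 CPM or more, only 20 were highest in pool 1, but 65 were lowest in pool 4. Without pool 4 the mean share was 14.4% for ribosomal proteins and 5.71% for the mitochondrial genome, and pool 1 stayed the highest. Translation factors were also even, at 4.61 ± 0.12%.

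Smaller classes described the structure of the embryo. Keratins held 1.97 ± 0.369% of counts, muscle contractile and energy genes 1.68 ± 0.392%, and actins and tubulins 1.66 ± 0.318%. Collagens held 0.878 ± 0.12%, led by col2a1a, the main collagen of notochord sheath and cartilage, at 1387 ± 161 CPM. Histone genes held 0.361 ± 0.0173%, led by the variant genes h2afvb (749 ± 90.6 CPM), h3f3c (700 ± 42.2 CPM) and h3f3a (659 ± 42.3 CPM). All 49 hox genes, which set position along the body axis, were present, led by hoxb3a at 178 ± 21.8 CPM. The hox class held 0.186%, 0.169%, 0.181% and 0.123% of counts in pools 1 to 4, and 43 of its 47 rows at 5 CPM or more were lowest in pool 4, against 41.4% of all such rows. Crystallins, the lens proteins, held only 0.00735 ± 0.00158% with 10 of 51 rows present.

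Apolipoproteins, which carry lipid out of the yolk and the liver, were classed with vitellogenins. Together they held 0.156%, 0.119%, 0.146% and 0.631% of counts in pools 1 to 4. Their mean of 0.263 ± 0.246% was 0.140% without pool 4. All 13 of their rows at 5 CPM or more were highest in pool 4, against 35.9% of all such rows.

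By RefSeq gene type, protein-coding rows held 89.8 ± 1.64% of counts and long non-coding RNA rows 0.179 ± 0.0208%. Rows without a RefSeq match held 4.86 ± 0.0543%. The single row matched as ribosomal RNA, zgc:158463, held 0.0570%, 0.0452%, 0.0624% and 0.145% in pools 1 to 4, highest in pool 4.

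**Figure D2:**
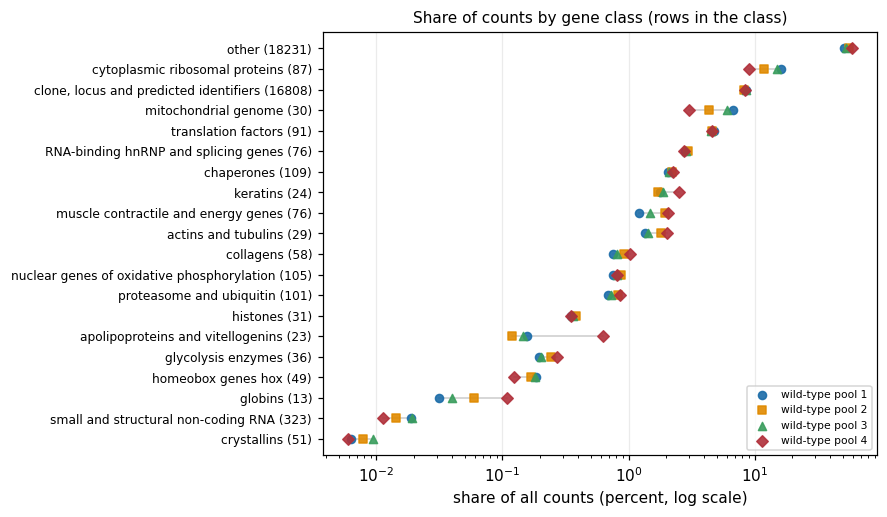
Share of all counts (percent, log axis) held by each gene class in each of the 4 wild-type pools, with the number of rows per class in brackets. Ribosomal proteins (9.03% to 16.3%) and the mitochondrial genome (3.02% to 6.70%) are lowest in pool 4, and apolipoproteins and vitellogenins are highest there (0.631%, against at most 0.156% in the others).

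Markers of 43 tissues and cell types were then read as present or absent. Of 470 marker rows, 347 were present (73.8%), against 49.0% of all rows. The lists were drawn from known, named genes, unlike many of the rows behind the 49.0%. Of the 16808 clone, locus and predicted identifiers 22.7% were present, and of the 18231 rows in no class 72.1%. The marker share was near the latter, so the gap to 49.0% says little about the embryo. Another 87 stayed under 1 CPM in every pool, and 15 of these had no count at all. Markers of skin, nervous system, muscle, blood, kidney and yolk layer were all read in every pool, as the label of whole embryo states.

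The outer layers gave the largest summed marker level. All 20 periderm and epidermis markers were present, with a summed 19577 ± 3531 CPM. After krt4 and cyt1l, the keratin genes cyt1 and krt5 averaged 2537 ± 1018 and 1417 ± 491 CPM, and both were highest in pool 4, at 4038 and 2153 CPM. The list of ionocytes, the skin cells that exchange salts, summed to 191 ± 60.8 CPM with 9 of 12 markers present. It was led by the carbonic anhydrase gene ca2 at 56.0 ± 9.68 CPM and the proton pump subunit gene atp6v1aa at 42.2 ± 15.6 CPM. With atp1a1a.2 and atp6v1ab, at means of 36.1 and 31.9 CPM, these genes made up most of the sum. The list member foxi3b averaged 6.79 CPM. The otic list was complete, with 11 of 11 markers present and the otolith matrix genes stm and oc90 at 69.1 ± 10.6 and 58.0 ± 19.9 CPM.

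Muscle was the next largest. All 18 fast muscle markers were present, summing to 8199, 14346, 10280 and 14285 CPM in pools 1 to 4. The members did not move together. The sarcoplasmic calcium pump gene atp2a1 had 959, 2044, 1171 and 3031 CPM and was highest in pool 4, whereas the fast myosin light chain gene mylpfa had 1339, 1580, 1639 and 1052 CPM and was lowest there. Slow muscle, which forms the first superficial fibres, had 7 of 8 markers present, led by the slow myosin gene smyhc1 (789, 1139, 859 and 1860 CPM) and the light chain gene myl10 (376 ± 74.4 CPM). The determination gene myod1 and the differentiation gene myog averaged 88.1 ± 14.7 and 89.0 ± 7.27 CPM, and all 9 myogenic regulators were present. Heart markers were much lower in sum, at 125 ± 21.6 CPM with 12 of 15 present. The cardiac light chain gene myl7 had 19.0, 15.1, 17.2 and 16.9 CPM, and the natriuretic peptide genes nppa and nppb stayed at 0.144 and 0.0659 CPM on average.

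The nervous system was read both as dividing and as differentiating cells. All 18 neural progenitor markers were present, at a summed 3404 ± 270 CPM, among them the Notch receptor gene notch3 (476 ± 75.2 CPM) and the neural stem cell factor genes sox19a (368 ± 25.6 CPM) and sox3 (332 ± 24.1 CPM). Of 20 postmitotic neuron markers 19 were present, led by the neuronal RNA-binding protein gene elavl3 with 500, 625, 561 and 536 CPM and the tubulin gene tubb5 at 402 ± 39.9 CPM. Of the 18 neuron markers at 5 CPM or more, 15 were lowest in pool 4, against 41.4% of all such rows. In the eye, 14 of 15 retinal progenitor markers were present, with pax6a at 98.4 ± 15.2 CPM. Of the myelin and oligodendrocyte list 7 of 11 markers were present, among them sox10 and nkx2.2a, which lists of other tissues hold too. The proteolipid gene plp1a was at 258 ± 42.9 CPM, cnp at 81.8 ± 10.3 CPM and the myelin basic protein gene mbpb at 32.0 ± 3.82 CPM, while its paralogue mbpa had no count.

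Axial tissue and the growing tail were both represented. In the notochord, the embryo's first axial support, 8 of 10 markers were present, and the ventral signal gene shha averaged 55.6 ± 9.67 CPM. The tail bud and presomitic mesoderm, which lay down the last somites, had 11 of 13 markers present and sums of 414, 313, 364 and 247 CPM in pools 1 to 4. Their leading members were the Notch ligand gene dlc (119, 101, 128 and 75.5 CPM), the T-box gene tbx6 (103, 76.4, 82.3 and 64.1 CPM) and cdx4 (53.3, 39.0, 46.0 and 32.2 CPM). Of the 8 members at 5 CPM or more, 7 were lowest in pool 4, again beside 41.4% of all rows. Neural crest was read through tfap2a (96.6 ± 12.3 CPM) and crestin (69.3 ± 21.3 CPM), and all 13 melanophore markers were present, summing to 128 ± 9.04 CPM.

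Blood and vessels were present with embryonic genes. All 15 erythroid markers were present, summing to 422, 712, 498 and 1256 CPM in pools 1 to 4. The embryonic alpha globin gene hbae1.1 had 59.7, 137, 45.0 and 320 CPM and the embryonic beta globin gene hbbe3 had 59.6, 111, 80.4 and 200 CPM. Both were highest in pool 4, as were 10 of the 12 erythroid members at 5 CPM or more and 35.9% of all such rows. Of 16 endothelial markers 15 were present, with the scavenger receptor gene stab2 at 59.5 ± 16.7 CPM and the junction gene cdh5 at 40.2 ± 7.90 CPM. Leukocyte lists were low in sum and mostly incomplete. The macrophage genes lcp1 and cybb were the 2 present of 8, and the neutrophil list had 3 of 7 present, cebpa (10.95 ± 8.41 CPM), mmp9 (4.41 ± 0.471 CPM) and npsn (1.63 ± 0.275 CPM). The liver list holds cebpa too. Of 8 lymphoid markers, only rag1, rag2 and ikzf1 reached 1 CPM in all pools, at 1.53 ± 0.476, 2.86 ± 0.149 and 1.81 ± 0.900 CPM, and cd4-1, cd8a and cd79a had no count.

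At 1 CPM in all pools, several lists of later cell types were nearly empty, with only a regulator gene present. Among 12 photoreceptor markers only crx, a regulator of photoreceptor genes, was present, at 1.39 ± 0.436 CPM. The list members pde6b and pde6a were close to crx, at means of 1.23 and 1.04 CPM. However, pde6b fell under 1 CPM in pool 4, and pde6a in pools 2 and 4. The rod opsin gene rho averaged 0.0534 CPM, below the limit of 3 counts, and the ultraviolet opsin gene opn1sw1 had no count. Among 12 exocrine pancreas markers only ptf1a, which specifies that tissue, was present, at 2.01 ± 0.478 CPM, and the chymotrypsinogen gene ctrb1 had no count. The list member prss1 had 1.38, 0.977, 1.17 and 0.659 CPM in pools 1 to 4. A row just under 1 CPM in a pool is thus not called present, though it was read. Among 10 pituitary markers only pitx3, which also marks lens, was present, at 18.8 ± 1.15 CPM. Of the hormone genes, prl averaged 0.739 CPM, with 9 to 22 counts per pool, gh1 0.132 CPM, about the limit of 3 counts, and pomca 0.0139 CPM, far below it.

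Organs with an early and a late programme were read to differing degrees. In the lens 12 of 17 markers were present, and prox1a and pitx3 averaged 43.3 ± 6.44 and 18.8 ± 1.15 CPM. The crystallin genes crybb1 and cryba1b averaged 11.2 ± 2.48 and 10.1 ± 3.05 CPM, but the alpha crystallin gene cryaa only 0.0338 CPM. In bone, the matrix gene sparc, which other tissues also express, had 411, 400, 415 and 405 CPM, while the cartilage hypertrophy gene col10a1a had no count. In the pancreatic islet 9 of 12 markers were present. Among these, neurod1 and isl1, genes that neurons share, averaged 22.4 ± 1.95 and 27.9 ± 1.37 CPM. The insulin gene ins averaged 1.67 CPM. For the pronephros, which filters before the adult kidney forms, 12 of 12 tubule markers and 5 of 7 podocyte markers were present. The tubule member pax2a, which the ear list holds too, was at 51.1 ± 1.64 CPM. The tubule sum was 210, 197, 198 and 342 CPM in pools 1 to 4. Of its 9 members at 5 CPM or more, 5 were highest in pool 4, against 35.9% of all such rows. Germ cells were at the edge, with 3 of 9 primordial germ cell markers present, ddx4 at 2.63 ± 0.922 CPM the highest.

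**Figure D3:**
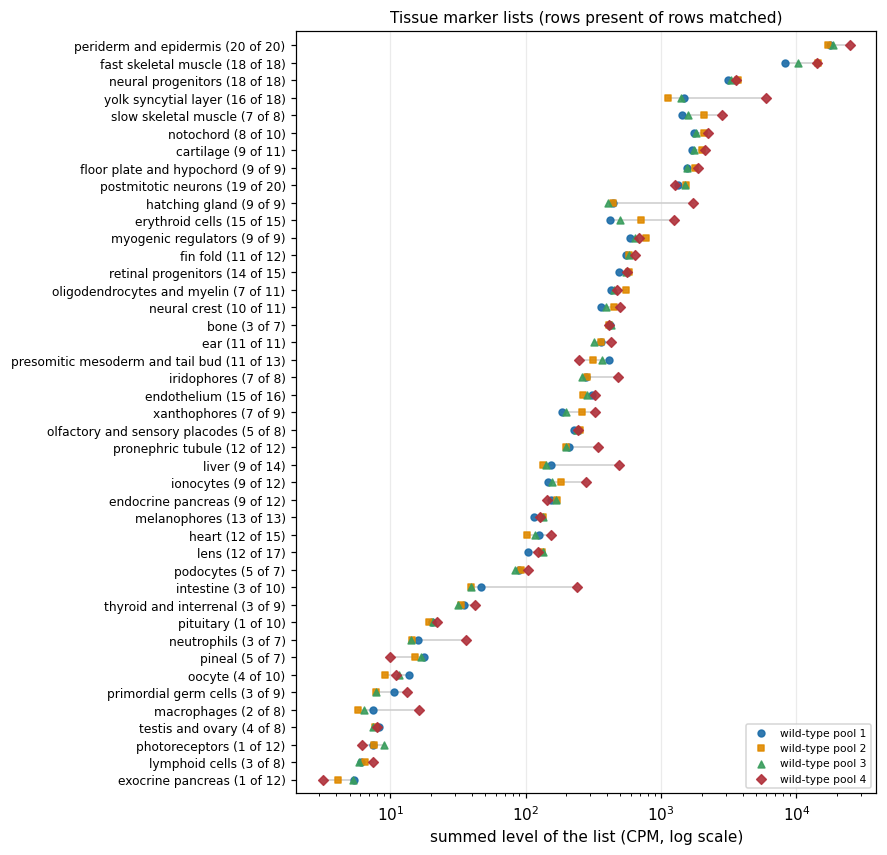
Summed CPM (log axis) of 43 tissue marker lists in each of the 4 wild-type pools, with the number of present and matched rows in brackets. Most lists have overlapping markers, whereas yolk syncytial layer, hatching gland, liver, intestine, erythroid, macrophage and neutrophil lists have pool 4 far to the right.

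Genes of cell division and of several stress lists were present throughout, while most interferon genes were not. For comparison, 49.0% of all rows and 72.1% of rows in no class were present. A complete list of known genes therefore says little by itself. All 16 mitosis and S phase genes were present, with the proliferation marker genes mki67 and pcna at 705 ± 127 and 705 ± 103 CPM. Of the 15 such genes at 5 CPM or more, 13 were highest in pool 4, against 35.9% of all such rows. Among heat shock genes, constitutive hspa8 stood at 5399 CPM but inducible hsp70l at 4.09 CPM. Interferon response genes had 2 of 11 present, stat1a and irf7, at 7.18 ± 1.03 and 4.57 ± 1.34 CPM. All 13 genes of the amino acid stress list were present, led by the transcription factor gene atf4a at 375 ± 63.9 CPM. All 14 immediate early genes were present as well, among them jun at 48.4 ± 7.29 CPM, and 10 of 11 hypoxia targets. The growth arrest and apoptosis list was complete, with 11 of 11 present and the cyclin G gene ccng1 at 423 ± 30.8 CPM. Genes of the KEOPS complex, which makes a modified base in tRNAs and which the study altered, were low to moderate. The catalytic subunit gene osgep had 15.397, 21.2, 16.9 and 24.4 CPM, with tp53rk at 33.0 ± 1.79 and tprkb at 8.67 ± 2.88 CPM. The gene yrdc, on the same list but not a subunit of the complex, was at 19.6 ± 1.55 CPM. Of the 7 symbols asked for this list, 2 matched no row.

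Variation between the pools was measured as the coefficient of variation (CV) in excess of counting error, after TMM scaling. Its median over the 13963 rows was 0.128, with quartiles of 0.0719 and 0.216. In 538 rows (3.85%) it was at least 0.5, and 424 of those were highest in pool 4. Without pool 4 the number was 164 (1.18%) and the median 0.0829. The 5 least variable named genes with a mean of at least 50 CPM were the initiation factor gene eif5 (276, 298, 285 and 310 CPM), the arginine methyltransferase gene carm1 (267, 287, 274 and 295 CPM), tmem131, erlec1 and the connexin gene cx30.3, whose spread did not exceed counting error after scaling.

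**Figure D4:**
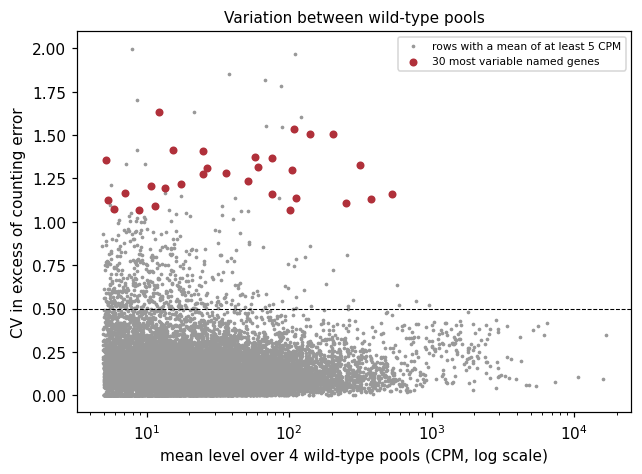
CV in excess of counting error (vertical axis) against mean CPM (log axis) for 13963 rows, with the 30 most variable named genes in red and a dashed line at 0.5. The red points lie between 1.07 and 1.64, and most rows lie below the dashed line, with a median of 0.128.

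The 30 most variable named rows, for which 23 clone or locus identifiers were passed over, were all highest in pool 4. Their excess CV ran from 1.64 for pcxb, a pyruvate carboxylase gene, to 1.07 for mttp, which loads lipid onto apolipoprotein B. Of the 30, 14 belong to the yolk syncytial layer, liver, intestine or hatching gland lists, which hold 0.283% of the 11680 named rows at 5 CPM or more, and 16 are on no list. None of the 30 was among the 30 leading genes when pool 4 was left out. That ranking, however, took only rows with a mean of at least 5 CPM in pools 1 to 3. Genes under that floor could not enter it, such as pcxb (2.01, 2.28 and 1.93 CPM in pools 1 to 3). The same held for prtga, which did vary among these pools (0.868, 11.3 and 1.64 CPM).

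Lipoprotein and lipid genes were among the 30. The high-density lipoprotein genes apoa1a (229, 207, 199 and 1492 CPM in pools 1 to 4), apoa1b (98.2, 96.5, 106 and 955 CPM) and apoa2 (38.0, 27.1, 32.8 and 464 CPM) were several times higher in pool 4 than in any other pool. The apolipoprotein B gene apobb.1, the scaffold of exported lipid particles, had 179, 135, 156 and 1046 CPM. The fatty acid binding protein genes fabp1b.1 (17.6, 15.9, 17.6 and 178 CPM) and fabp2 (36.3, 26.6, 27.7 and 212 CPM) and the triglyceride synthesis gene dgat2 (1.38, 1.51, 1.83 and 16.1 CPM) did likewise. In each of these genes pools 1 to 3 lay close together and pool 4 did not overlap them.

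Plasma protein and protease genes were also among them. The transferrin gene tfa had 51.7, 39.9, 43.1 and 270 CPM, the fibrinogen gene fgg 3.72, 2.00, 2.16 and 15.8 CPM, and afp4 56.4, 42.1, 44.6 and 676 CPM. The hatching enzyme gene he1.2, a protease that digests the egg envelope, had 26.6, 27.2, 17.1 and 360 CPM. The cathepsin L gene ctslb, also a hatching gland product, had 24.8, 22.9, 20.5 and 236 CPM. Both are made by the gland that frees the embryo from its envelope. The gene he1.1 appeared as a pair of rows whose summed levels were 140, 107, 97.4 and 760 CPM. Again the first 3 pools were alike and pool 4 stood alone.

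Over whole lists, the ratio of the highest to the lowest pool after TMM scaling was 5.88 for intestine, 5.16 for yolk syncytial layer, 3.98 for hatching gland, 3.54 for liver, 2.73 for macrophages, 2.68 for erythroid cells and 2.46 for neutrophils. The median over 55 lists was 1.25. All 16 yolk syncytial layer members and all 8 hatching gland members at 5 CPM or more were highest in pool 4, against 35.9% of all such rows. Without pool 4 the ratios were 1.28 for intestine, 1.43 for yolk syncytial layer, 1.14 for hatching gland, 1.23 for liver, 1.40 for macrophages, 1.56 for erythroid cells and 1.19 for neutrophils, and 0 of 55 lists were at 2 or more. The intestine sum rested mainly on fabp2, since only 3 of 10 members were present. The liver sum rested largely on tfa, which the yolk syncytial layer list holds too. In pools 1 to 4 tfa had 51.7, 39.9, 43.1 and 270 CPM of a summed 153, 134, 141 and 487 CPM. Of the 8 liver members at 5 CPM or more, 6 were highest in pool 4. The neutrophil sum rested mainly on cebpa, with 7.61, 6.56, 6.11 and 23.5 CPM of a summed 15.9, 14.4, 14.3 and 36.6 CPM in pools 1 to 4. The macrophage sum was only 8.97 ± 4.87 CPM, with no member at 5 CPM. Lower ribosomal protein and mitochondrial shares moved with pool 4 as well, and their part in these ratios was not tested.

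**Figure D5:**
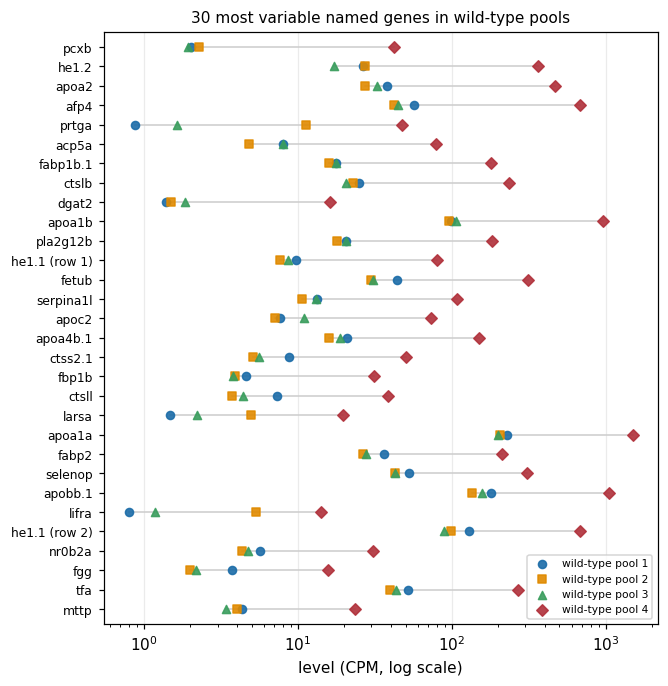
Levels (CPM, log axis) of the 30 most variable named rows in each of the 4 wild-type pools, in order of falling excess CV. The pool 4 marker is at the right end of every row, for apoa2 at 464 CPM against at most 38.0 CPM in the others.

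Pool 4 was also distinct in number. At 5 CPM or more, 230 rows were at least 2-fold above each other pool in pool 4, against 2, 0 and 3 rows in pools 1 to 3. Another 109 rows were at most 0.5 times each other pool in pool 4, against 14, 5 and 11. The numbers for pools 1 and 3 could not be large, because only 42 rows differed at least 2-fold between them. Among the 230, 167 carried gene names, and these included creatine synthesis genes gatm (191, 203, 201 and 536 CPM) and gamt (72.2, 110, 76.4 and 249 CPM) and the methionine cycle gene bhmt (168, 128, 144 and 583 CPM). Of the 109 low rows 20 carried gene names, among them the ribosomal protein gene rplp2 (886, 481, 766 and 247 CPM). These genes were chosen after their values were seen.

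Without pool 4, and passing over 16 identifiers, the named genes with a mean of at least 5 CPM in pools 1 to 3 were ranked again. They were led by slc6a8, a creatine transporter gene, with 3.39, 20.1, 4.18 and 36.7 CPM in pools 1 to 4. The muscle cadherin gene cdh15 had 10.0, 65.3, 20.01 and 115 CPM and the serum response factor gene srfb 4.39, 21.14, 6.76 and 32.3 CPM. Of the 10 leading genes, all were higher in pool 2 than in pools 1 and 3, the DNA methyltransferase gene dnmt3aa (4.64, 18.4, 4.42 and 31.7 CPM) included. These were set apart by leaving out a library and are described only.

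Some swings lay in rows that may be copies of a gene. The row si:ch73-187m15.4, whose identifier the reference names call actc1c, had 169, 1.33, 167 and 1.27 CPM, whereas the muscle actin gene actc1b had 1218, 2964, 1539 and 2846 CPM. The table holds another row under the symbol actc1c, with a mean of 8.76 CPM. The sum of the first pair, 1387, 2965, 1706 and 2847 CPM, was smoother than either. ATG2A had 10.5, 18.7, 0 and 33.4 CPM, and a row with the same identifier, si:ch73-45o6.2, had 0, 4.34, 12.8 and 7.49 CPM. Expected counts divide reads that match several copies among them, so each such row is uncertain by itself. How alike these rows are in sequence was not tested.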

How the data were processed

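Whole-embryo RNA of 4 wild-type pools at 26 hpf was measured after rRNA depletion. Per the submitters' processing notes, Trimmomatic, STAR 2.7 and RSEM were used with build danRer11; in which order, with which settings and annotation, and whether strand was used, is not given in the sources used here. The values deposited by the authors are expected counts per gene, not scaled between libraries. Antisense and overlapping genes may therefore share reads. From them CPM, class shares and list sums were computed on unrounded counts. TMM factors came from edgeR 4.0.16 and, as an alternative, size factors from DESeq2 1.42.0 in R 4.3.3. A row was present at 1 CPM in all 4 pools.

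Excess CV is the square root of the squared CV minus the mean of 1 over the count. On simulated counts 87.6% of 185 genes with a CV of 1 exceeded 0.5, and 0 others did. Those others were simulated independently at a CV of 0.1, so they could hardly reach 0.5. In the data the 90th percentile of excess CV was 0.333. The simulation therefore gives no rate of false calls for these data.

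The lists, classes and the pools to describe were chosen with earlier results of these data known. Of 625 listed symbols, 617 matched a row. Class patterns were corrected after gene names were seen. The named genes are the 25 highest rows, the 30 most variable and 5 least variable named genes, the up to 4 highest members of each list, members at 0, present members of late lists, the 3 highest of each class, and osgep. The rule's level per coding length was not run, as no protein lengths were at hand. List members named for low levels (nppa, nppb, rho, pomca, gh1, cryaa, ins, hsp70l) were chosen after their values were seen. Comparisons between pools used no test, apart from Dixon's critical value in the closing screen. Some genes are not reported here.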

Additional observations from a re-analysis of the deposited data

Results flagged for a closer look

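In a group of 4 pools, a value was singled out when the gap between its highest or lowest pool and the nearest other pool divided by the whole range exceeded Dixon's critical value for 4 values, which chance passes in about 1 of 20 groups. Genes and class shares were screened on CPM without TMM scaling, and list sums after TMM scaling. Whether each gene would also pass after TMM scaling was not tested. Of 204 values screened, 39 passed. The genes screened include the most variable ones, which were all highest in pool 4, and others chosen after their values were seen, so the number that passed cannot be set against that rate.

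Pool 4 was highest, with a gap given as a fraction of the range, in the class share of apolipoproteins and vitellogenins (0.928) and in the list sums of hatching gland (0.954), intestine (0.944), xenobiotic genes (0.918), liver (0.908), yolk syncytial layer (0.897), neutrophils (0.872) and iridophores (0.86). The iridophore sum, 327 CPM on average, rested mainly on paics, gart and atic, at means of 125, 101 and 66.9 CPM. Its member tfec was even between pools, at 16.9 ± 0.804 CPM. The growth arrest and apoptosis list was lowest in pool 4 (0.919), but its range was narrow, with a highest-to-lowest ratio of 1.16. Other pools stood out in the list of oligodendrocytes and myelin (pool 2 highest, 0.926), pituitary (pool 2 lowest, 0.88) and testis and ovary (pool 1 highest, 0.862). The ranges of these 3 sums were narrow, with highest-to-lowest ratios of 1.19, 1.13 and 1.15. The pituitary sum of 20.6 CPM was mainly pitx3, at 18.8 CPM. The testis and ovary sum was only 7.84 CPM, with no member at 5 CPM.

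Among genes, pool 4 was highest for pcxb (0.991), fabp1b.1 (0.99), apoa1b (0.989), ctslb (0.98), afp4 (0.977), apoa1a (0.977), apoa2 (0.975), krt5 (0.975), he1.2 (0.971), both rows of he1.1 (0.971 and 0.931) and dgat2 (0.969). It was also highest for gatm (0.966), mttp (0.954), apobb.1 (0.951), tfa (0.949), fabp2 (0.947), cebpa (0.913), bhmt (0.911), fgg (0.875) and jun (0.866), and lowest for myod1 (0.875). Pool 1 was highest for eef1a1l1 (0.876) and lowest for mmp9 (0.894). Pool 2 was highest for rag1 (0.884) and sox19a (0.843). After TMM scaling the spread of mmp9 did not exceed counting error. The excess CV of eef1a1l1, sox19a and jun was 0.0921, 0.0632 and 0.107, each under the median of 0.128, and that of myod1 was 0.198. Pool 3 alone held counts of pomca (1), which were too few to read.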

How the results depend on the processing

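Scaling by TMM or DESeq2 size factors, leaving out mitochondrial genes, and rounding left the share of the 25 highest rows within its SD, and leaving out each pool gave 13.0% to 14.4%. Rows present ranged from 15791 (at 2 CPM) to 20785 (1 CPM in any pool) and tissue marker rows from 300 to 383 over the thresholds, filter and scaling tried. Without the 25 highest rows the mitochondrial genome held 0.832%, translation factors 2.30% and keratins 0.704% of counts, and without mitochondrial genes translation factors held 4.86%; these follow from the rows removed. Rows with an excess CV of at least 0.5 numbered 1444 at a mean of at least 1 CPM, 142 at a mean of at least 20 CPM, 604 on the total count, 554 with DESeq2 size factors, and 482 with rows of one reference name summed, an alternative chosen after seeing the data. Leaving out each pool gave 164 to 755, the lowest without pool 4. The ratios of the list sums ranged, with each pool left out in turn, from 1.56 to 2.68 for erythroid cells, 1.40 to 2.73 for macrophages, 1.19 to 2.46 for neutrophils, 1.14 to 3.98 for hatching gland, 1.43 to 5.16 for yolk syncytial layer, 1.23 to 3.54 for liver and 1.28 to 5.88 for intestine. Of the 30 most variable genes, 21 were shared with a ranking by SD of log2(CPM + 1) and 23 with edgeR's tagwise dispersion. No paired analysis was possible because only 1 genotype is used. Apart from the screen by Dixon's critical value, no result comes from a test.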
